A study of Homo sapiens with 9 samples.

Results

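Aquaporins are the channel proteins that let water, and in some members glycerol, hydrogen peroxide or ammonia, cross cell membranes. The values given here are those of 9 aquaporin genes in undifferentiated Caco-2 cells (uCaco-2), AQP1, AQP3, AQP4, AQP5, AQP7, AQP8, AQP9, AQP10 and AQP11, out of 60591 gene symbols in the deposited table. They were taken by symbol. The family was chosen by the measured level of AQP10, which stood among the largest rises with an oxyquinoline derivative (OD). The values of OD against control are therefore given as a description without a test, as are those of AQP10 in every comparison. Caco-2 is a human colon adenocarcinoma line, and the cells were used undifferentiated. For 24 h they received medium with CoCl2 at 300 μM, medium with OD 4896-3212 at 5 μM, or medium with neither (control), and 0.5% DMSO is stated for all conditions, although the stated stock and dose of OD would bring in less. Each condition had 3 biological replicates. CoCl2 and OD both block the prolyl hydroxylases that mark hypoxia-inducible factor (HIF) for destruction, and the study compared each with control cells. Their doses differed and were not matched.

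Water-selective members such as AQP1, AQP4 and AQP5 pass little else, while the aquaglyceroporins AQP3, AQP7, AQP9 and AQP10 also carry glycerol. AQP8 passes water and ammonia, and AQP11 is a distant member of the family that resides on internal membranes. In the intestine AQP3 is known from the basolateral membrane of colonic epithelium, AQP8 from colonic surface cells and AQP10 from the small intestine, where enterocytes move large volumes of fluid.

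Total counts per library ranged from 15998136 to 24209427, and the scaling factors of edgeR were 0.770 to 0.795 with CoCl2 against 1.11 to 1.15 in the other 6 libraries. Levels are given as CPM, a gene's counts relative to the scaled total of its library. In a bulk measurement such as this one, fewer cells and less RNA per cell cannot be told apart. Of 9 colon epithelial markers, CDX1 had no count in any library, and the summed level of the list was 11101 to 11641 CPM in control, 13307 to 14265 with CoCl2 and 10563 to 11117 with OD. Markers of cell types that carry AQP1 or AQP9 in tissue were low. The endothelial list summed to 2.57 to 3.50 CPM over all libraries, the red cell list to 0.196 to 1.24 CPM and the leukocyte list to 2.29 to 5.49 CPM, and FCGR3B had no count in any library. The fibroblast list summed to 77.9 to 109 CPM, mostly from PDGFRA and COL1A1, and the part of these lists in the results was not tested.

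Only 4 of the 9 members, AQP3, AQP7, AQP10 and AQP11, passed the expression filter of edgeR, which asks for about 10 counts in at least 3 libraries and kept 15944 genes. AQP10 passed through the OD libraries alone. The other 5, AQP1, AQP4, AQP5, AQP8 and AQP9, were at 0 to 8 counts in every library. Differences were tested with edgeR (quasi-likelihood fit of the 9 libraries), p-values were adjusted over all 15944 genes, and a gene was called at an adjusted p under 0.05 with a log2 fold change above 1 in size.

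Per kilobase of annotated exon, AQP3 had the highest level in all conditions. It stood at 7.72 ± 0.581 CPM per kb in control (SD, n = 3), 10.8 ± 0.524 with CoCl2 and 21.4 ± 0.737 with OD. AQP11 came next in every condition, at 4.77 ± 0.594, 3.26 ± 0.163 and 5.33 ± 0.423 CPM per kb. AQP7 followed in control cells at 0.362 ± 0.0791 CPM per kb, above AQP10 at 0.120 ± 0.0636. With OD the order of the latter was turned, with AQP10 at 4.01 ± 0.247 CPM per kb and AQP7 at 0.318 ± 0.0520. These 4 levels did not overlap between libraries in control or OD. With CoCl2, AQP10 at 0.231 ± 0.0924 CPM per kb was above AQP7 at 0.109 ± 0.0163 with the union of exons as the length, and the libraries overlapped with the length of the canonical transcript, an alternative chosen after seeing the data. In control the next levels, those of AQP10, AQP1, AQP4 and AQP5, each overlapped with their neighbour in this order.

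**Figure D1:**
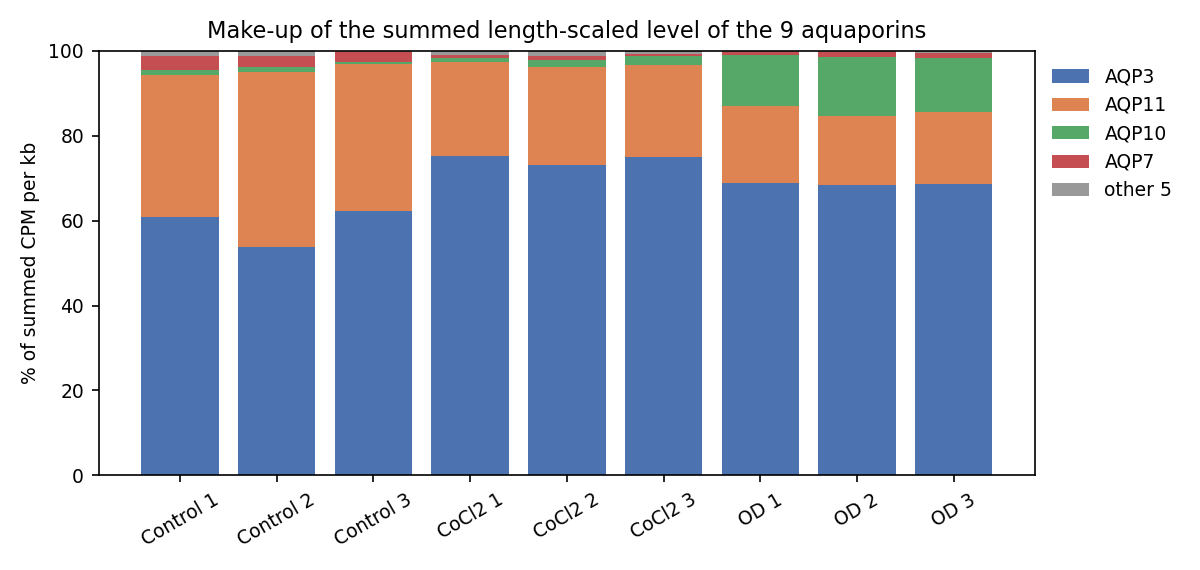
Share of each aquaporin in the summed CPM per kb of the 9 members (y axis, percent) in each library (x axis, 3 control, 3 CoCl2 and 3 OD). AQP3 holds 53.7% to 62.3% in control libraries, and the AQP10 band has a mean of 0.908% in control and 1.57% with CoCl2 and spans 12.0% to 13.8% in the OD libraries.

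As a share of the summed length-scaled level of the 9 members, AQP3 held 59.0% ± 4.61 in control (SD, n = 3), 74.4% ± 1.21 with CoCl2 and 68.6% ± 0.237 with OD. The share of AQP11 was 36.4% ± 4.18, 22.3% ± 0.857 and 17.1% ± 0.926, and that of AQP10 was 0.908% ± 0.465, 1.57% ± 0.564 and 12.9% ± 0.921. Summed over the 9 members without length scaling, the level was 33.7 to 37.1 CPM in control, 38.3 to 41.9 with CoCl2 and 82.5 to 87.5 with OD, and these sums rest mainly on AQP3.

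AQP10 is a glycerol and water channel of the human small intestine. It lies on the plus strand of chromosome 1 of GRCh38, from 154321090 to 154325325, in 6 exons of the canonical transcript, and shares no exonic base with another annotated gene. It had 6, 8 and 2 counts in the control libraries, 5, 7 and 14 with CoCl2 and 195, 222 and 167 with OD. Scaled for depth, these were 0.323, 0.392 and 0.112 CPM in control, 0.311, 0.542 and 0.734 CPM with CoCl2 and 8.86, 9.85 and 8.89 CPM with OD. All OD libraries stood far above the other 6, and the CoCl2 and control libraries overlapped. The log2 fold change with OD was 5.00 (standard error 0.224), a 32.0-fold difference, and this is the value that chose the family. Against OD, the level with CoCl2 was lower by a log2 difference of -4.07 (standard error 0.206), which follows from the same choice. With CoCl2 against control the log2 fold change of AQP10 was 0.92 (standard error 0.452), and this too is a description without a test. AQP10 passed the filter through the OD libraries alone, and the choice used the same control libraries. Its log2 fold change ranged from 0.43 to 1.27 over the alternatives in which it had a value.

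The 250 bases before the RefSeq start of AQP10 and of AQP3 are shown because these were the members whose OD libraries stood above all others. Capitals mark ACGTG or its reverse complement CACGT, the core letters to which HIF binds. Both sequences are from RefSeq on GRCh38.p14, for AQP10 chr1:154320843-154321092 on the plus strand and for AQP3 chr9:33447594-33447843 on the minus strand, written 5′ to 3′ along the gene.
AQP10: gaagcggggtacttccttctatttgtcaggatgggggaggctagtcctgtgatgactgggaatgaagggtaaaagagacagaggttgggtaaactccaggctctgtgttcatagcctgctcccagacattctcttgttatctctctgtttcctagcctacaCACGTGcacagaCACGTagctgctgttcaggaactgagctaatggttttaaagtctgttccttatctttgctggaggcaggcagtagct
AQP3: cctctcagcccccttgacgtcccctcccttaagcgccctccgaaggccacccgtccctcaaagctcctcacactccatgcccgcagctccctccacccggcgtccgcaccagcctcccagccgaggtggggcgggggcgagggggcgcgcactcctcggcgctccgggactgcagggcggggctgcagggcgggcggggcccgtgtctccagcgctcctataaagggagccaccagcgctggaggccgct
In AQP10 the letters occurred at 2 separate places. The first, which begins 89 bases before the start, is the palindrome CACGTG and matches on both strands, and the other begins 77 bases before the start on the minus strand. Over 35116 RefSeq windows of the same length, 18.5% held ACGTG on either strand, 6.34% held CACGTG and 2.61% held ACGTG at 2 or more places that did not overlap. AQP3 held none of these letters in its window, and a TATAAA began 32 bases before its start, where 10.7% of the windows held TATAAA on either strand. Of the 8 members with a window in the RefSeq table, AQP5 also held CACGTG, 221 bases before its start, although it had no more than 2 counts in any library. GCGTG, the other form of the HIF core, was found only in AQP8 among these 8, against 32.2% of all windows. TGANTCA, bound by AP-1, was found in none of the 8, against 6.57% of all windows. A match is a description of letters and not a bound site.

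The gene next to AQP10 differed in the same libraries. ATP8B2, which encodes a phospholipid flippase, starts 200 bases beyond the end of AQP10 on the same strand. It stood at 7.91, 7.79 and 7.97 CPM in the control libraries, 6.72, 6.04 and 7.24 CPM with CoCl2 and 20.1, 19.6 and 19.6 CPM with OD. Its OD libraries lay above the other 6, as those of AQP10 did. For 68.0% of all tested genes the OD and control libraries did not overlap. The log2 fold change of ATP8B2 with OD was 1.32 (standard error 0.0877), against 5.00 for AQP10 in the same contrast. Both are descriptions without a test, since that contrast chose AQP10 and ATP8B2 was taken for its place beside it. With CoCl2 the log2 fold change of ATP8B2 was -0.23 (standard error 0.112, edgeR adjusted p = 0.0537). HAX1, the nearest protein-coding gene on the other side at a distance of 45215 bases, gave a log2 fold change of -0.33 for CoCl2 and 0.28 for OD. The OD libraries of HAX1 lay above the other 6 as well, at 102, 92.4 and 102 CPM. Whether reads of AQP10 and ATP8B2 come from separate transcripts was not tested, since the table holds gene counts only.

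**Figure D2:**
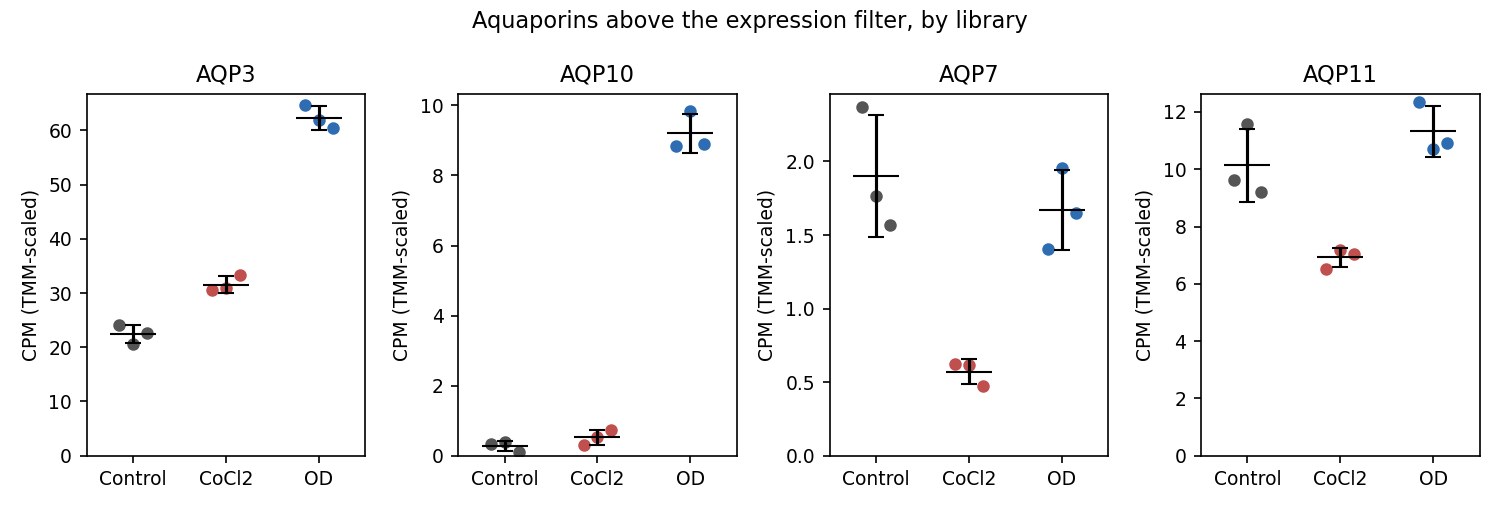
Level in CPM (y axis, from 0, a separate scale in each panel) of AQP3, AQP10, AQP7 and AQP11 in control, CoCl2 and OD libraries. Points are libraries and bars give the mean and SD of 3, with AQP10 at 8.86 to 9.85 CPM with OD and at most 0.734 CPM elsewhere.

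AQP3, the aquaglyceroporin with the highest level in these cells, spans chromosome 9 (minus strand) from 33441156 to 33447596. Its level was 24.0, 20.7 and 22.7 CPM in the control libraries, 30.5, 30.9 and 33.3 CPM with CoCl2 and 64.6, 61.9 and 60.4 CPM with OD. The 3 conditions did not overlap, with CoCl2 between control and OD. The log2 fold change with OD was 1.47 (standard error 0.0616), a 2.78-fold difference. With CoCl2 it was 0.50 (standard error 0.0688, edgeR adjusted p = 2.14e-09), below the threshold on the fold change, and it turned to -0.011 (adjusted p = 0.888) when libraries were scaled by size alone. That scaling moved the median of all genes to -0.55 from -0.049, and relative to this median AQP3 was higher by 0.54 in both. Directly compared, AQP3 was lower with CoCl2 than with OD by a log2 difference of -0.98 (standard error 0.0602, adjusted p = 3.58e-23), just inside the fold threshold. It passed that threshold without CoCl2 replicate 3, at -1.02, and without OD replicate 3, at -1.01. It also passed with upper-quartile factors (-1.11), with scaling by size alone (-1.52), with no filter on counts (-1.04) and with only genes of at least 10 counts in every library (-1.03).

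AQP7 is a glycerol channel best known from fat cells. Its gene spans chromosome 9 (minus strand) from 33383179 to 33402682, 38474 bases from AQP3. It had 44, 36 and 28 counts in the control libraries, 10, 8 and 9 with CoCl2 and 31, 44 and 31 with OD. In CPM these were 2.37, 1.76 and 1.57 in control, 0.622, 0.619 and 0.472 with CoCl2 and 1.41, 1.95 and 1.65 with OD. The CoCl2 libraries lay below all others, while the OD and control libraries overlapped. AQP7 fell with CoCl2, with a log2 fold change of -1.75 (standard error 0.294, edgeR adjusted p = 2.61e-07), and it was called in all alternatives in which it was tested. It was also lower with CoCl2 than with OD, by -1.56 (standard error 0.297, adjusted p = 3.21e-06). With OD against control the log2 fold change was -0.18 (standard error 0.216), and its sign turned to 0.014 without control replicate 1. AQP7 has near-identical copies in the genome, and the 5 of them in the table had 0 counts in all libraries together, so how the counting treated reads shared with them is uncertain. An annotated antisense transcript covers 9.5% of its exonic bases. AQP3 and AQP7 are the nearest protein-coding neighbours of each other on one side, and on the outer sides NOL6 had log2 fold changes of -0.37 with CoCl2 and -0.78 with OD, and NFX1 had 0.57 and 0.18.

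AQP11 is an aquaporin of internal membranes with an altered pore motif, and its gene spans chromosome 11 (plus strand) from 77589391 to 77610356. Its level was 9.63, 11.6 and 9.20 CPM in control, 6.53, 7.20 and 7.03 CPM with CoCl2 and 12.4, 10.7 and 10.9 CPM with OD. The CoCl2 libraries again lay below all others, and the OD and control libraries overlapped. The log2 fold change with CoCl2 was -0.56 (standard error 0.112, edgeR adjusted p = 8.55e-06), which passed the adjusted p but not the threshold on the fold change, but reached -1.06 when libraries were scaled by size alone. Relative to the median of all genes it was -0.51 under both scalings. Against OD it was -0.71 (standard error 0.108, adjusted p = 2.11e-08). With OD against control it was 0.16 (standard error 0.0965). AQP11 lies within CLNS1A, a chloride conductance regulator on the opposite strand with which it shares no exonic base. CLNS1A itself had log2 fold changes of -0.91 with CoCl2 and -0.57 with OD.

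**Figure D3:**
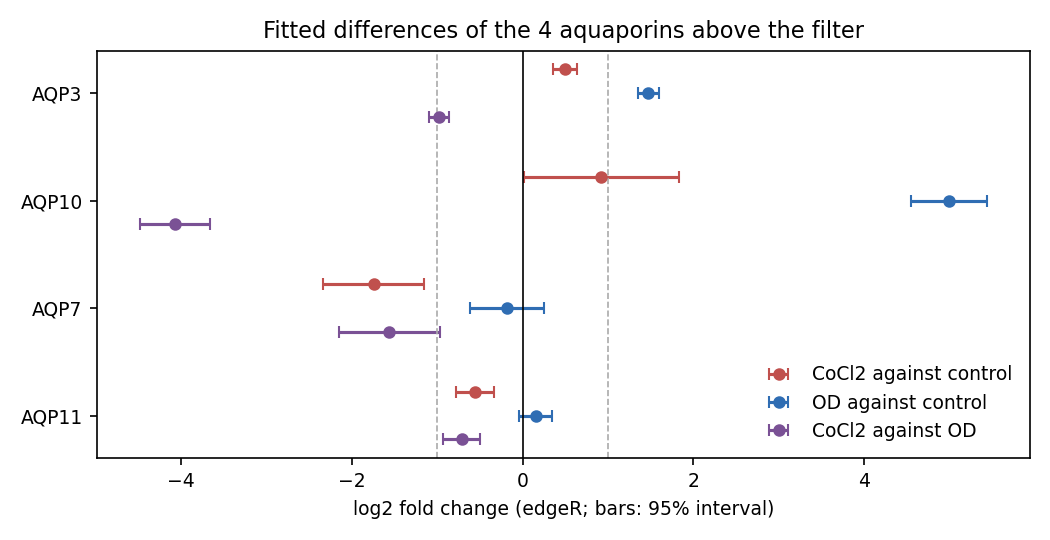
Log2 fold changes (x axis) of the 4 members above the filter in the 3 comparisons among control, CoCl2 and OD, with 95% intervals as bars and dashed lines at 1 in size. The bars of OD against control, and all bars of AQP10, describe the fit and are not a test. AQP7 lies beyond -1 in both comparisons with CoCl2, and the OD value of AQP10 at 5.00 is the one that chose the family.

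With CoCl2 against control AQP10 is left out, since it passed the filter through the OD libraries alone. Of the other 3 members above the filter 1 was called, AQP7, where 43.2% of all tested genes were called. The libraries did not overlap for AQP3, AQP7 and AQP11, and for 83.4% of all tested genes. By the adjusted p alone these 3 passed, as did 83.2% of all tested genes. AQP3 was the 1 higher with CoCl2 and AQP7 and AQP11 were the 2 lower, against 40.4% and 42.8% of all tested genes. OD against control chose the family, so its members have no test there, and nothing about them is read from the background of 13.3% of all tested genes called, 68.0% with libraries that did not overlap and 65.6% past the adjusted p alone. By description, 2 of the 4, AQP3 and AQP10, had a log2 fold change above 1 and libraries that did not overlap. Between CoCl2 and OD, where AQP10 has no test, 1 of the other 3 was called, AQP7, against 41.3% of all tested genes. The libraries of these 3 did not overlap, as for 83.8% of all tested genes. AQP3, AQP7 and AQP11 were lower with CoCl2 than with OD by the adjusted p alone, which 83.5% of all tested genes passed, with 43.2% lower and 40.2% higher. The 2 comparisons against control share the control libraries, and those with OD share the OD libraries.

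**Figure D4:**
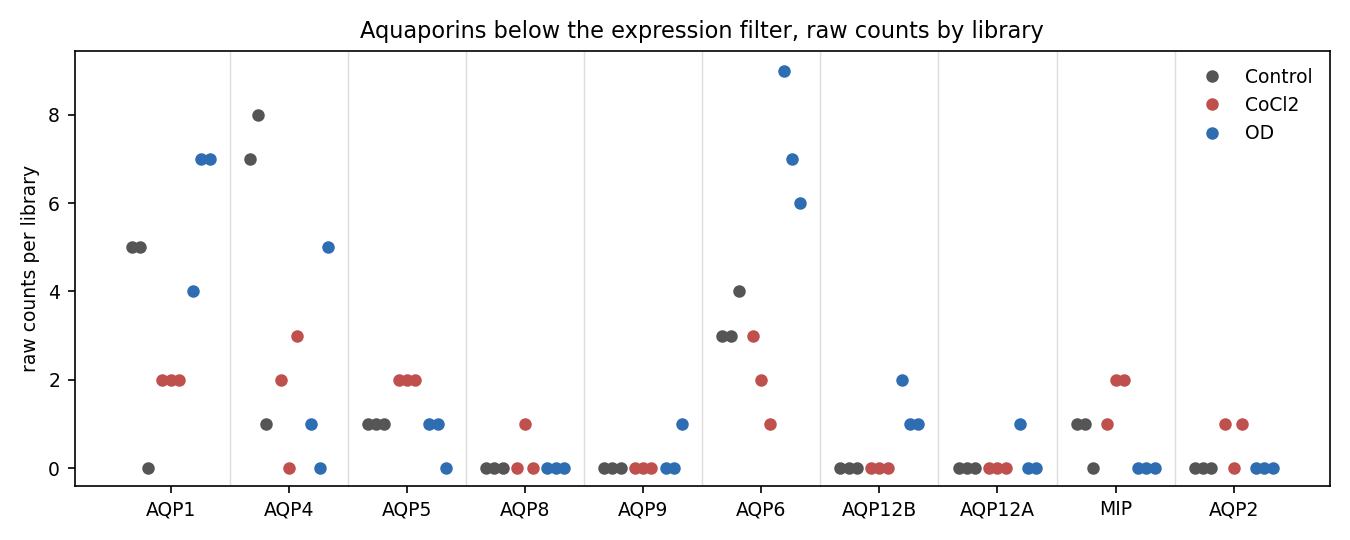
Raw counts per library (y axis) of the aquaporin genes below the expression filter in control, CoCl2 and OD, 3 points for each condition. None exceeds 9 counts, and AQP8, AQP9, AQP12A and AQP2 have at most 1.

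The other members were close to the limit of detection, where 3 counts correspond to 0.133 to 0.232 CPM depending on the library. AQP1, the water channel of endothelium and red cells, had 5, 5 and 0 counts in control, 2, 2 and 2 with CoCl2 and 4, 7 and 7 with OD, and an annotated gene of the same strand covers 27.9% of its exonic bases. AQP4, the water channel of astrocytes, had 7, 8 and 1 counts in control, 2, 0 and 3 with CoCl2 and 1, 0 and 5 with OD. Neither separated the conditions in the CoCl2 comparison. Without the count filter, the log2 fold change with CoCl2 was -0.53 for AQP1 (95% interval -2.08 to 1.02, edgeR adjusted p = 0.627) and -1.44 for AQP4 (95% interval -2.94 to 0.058, adjusted p = 0.129). AQP5, known from salivary and lacrimal glands, had 1 count in each control library, 2 in each CoCl2 library and 1, 1 and 0 with OD. AQP8, the water and ammonia channel of colonic epithelium, had a single count over all 9 libraries, in CoCl2 replicate 2. AQP9, the glycerol channel of liver and leukocytes, had a single count as well, in OD replicate 3. A count of 0 in a library allows up to 3 counts, so low levels of AQP8 and AQP9 were not detectable at this depth. These limits cover counting error only.

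Other aquaporin symbols of the table were also low. AQP6, an intracellular channel of the kidney, had 3, 3 and 4 counts in control, 3, 2 and 1 with CoCl2 and 9, 7 and 6 with OD, and its OD libraries lay above the others in counts. AQP12B had 0 counts in the control and CoCl2 libraries and 2, 1 and 1 with OD, and AQP12A had 1 count in OD replicate 1. The latter are near-identical copies, so the split between them is uncertain. MIP, the aquaporin of the eye lens, had at most 2 counts, and AQP2, the vasopressin-regulated channel of the kidney, at most 1. AQP4-AS1, a non-coding RNA next to AQP4, passed the filter with 7, 10 and 12 counts in control, 1, 0 and 1 with CoCl2 and 10, 12 and 4 with OD. Its summed level with CoCl2 was 0.0815 of that in control (95% counting interval 0.00942 to 0.322), and it was called lower (edgeR adjusted p = 2.81e-05). For AQP4 itself the same ratio was 0.369 (0.106 to 1.06). The strand setting of the counting is not given in the sources used here. Reads of exonic bases shared with an antisense partner therefore cannot be told apart. In the annotation used for the loci, AQP4 shares 0.0% of its exonic bases with antisense genes, against 9.5% for AQP7 and 14.3% for AQP9. The counting used an earlier release of that annotation, in which the overlap was not tested.

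The genes whose levels followed those of the members most closely were ranked by Pearson correlation of log2 CPM over the 9 libraries among 13429 genes whose mean reached 1 CPM. All these values come from the same libraries and are descriptive. For AQP10 they were PCTP, a phosphatidylcholine carrier (r = 0.995), MUC17, a membrane mucin of the brush border (r = 0.992), STIM1, a calcium sensor of the endoplasmic reticulum (r = 0.992), AC006001.2 and KLHL36 (both r = 0.990). Correlation takes no account of size. In the same order, the log2 fold changes of these genes with OD were 0.78, 2.44, 0.45, 1.15 and 0.37, against 5.00 for AQP10. MUC17 thus had the largest log2 fold change of these, and it stood at 0.735 CPM in control, 1.07 with CoCl2 and 4.03 with OD. For AQP3 the list was RASSF2, FNIP2, FAM162A, CSRNP2 and ALS2CL, with r of 0.994 to 0.996, and FAM162A, a mitochondrial protein known as a HIF target, stood at 33.2, 45.0 and 87.1 CPM in control, CoCl2 and OD. For AQP7 it was ACSL1, C1orf122, RPARP-AS1, MHENCR and LPCAT3, with r of 0.982 to 0.989. ACSL1, which activates long-chain fatty acids, stood at 83.4, 52.9 and 78.9 CPM. For AQP11 it was TPGS1, ZNF860, CBY1, ZNF827 and DYNC2LI1, with r of 0.976 to 0.988. Among the members themselves, r was 0.96 between AQP3 and AQP10, 0.84 between AQP7 and AQP11 and 0.088 between AQP3 and AQP7.

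Genes that act with aquaporins were taken as whole lists. Glycerol that enters through AQP3, AQP7 or AQP10 is phosphorylated by glycerol kinase and built into glycerolipids, and lipolysis releases it again. Of 15 genes of this list, 7 fell and 2 rose with CoCl2 by edgeR, against 23.4% and 19.9% of all tested genes, and the median log2 fold change was -0.93 against -0.049 over all tested genes. With libraries scaled by size alone, 10 fell and 2 rose. GPD1, the cytosolic glycerol 3-phosphate dehydrogenase, was lowest with a log2 fold change of -2.92 (standard error 0.390, adjusted p = 6.5e-10) and had 34, 30 and 28 counts in control and 1, 2 and 7 with CoCl2. DGAT2 and AGPAT1, enzymes of triglyceride and phosphatidic acid synthesis, fell too, with log2 fold changes of -2.09 and -1.77. PNPLA2, the first lipase of triglyceride breakdown, rose from 26.8 ± 0.476 to 111 ± 3.56 CPM (SD, n = 3), a log2 fold change of 2.06, and GPAT3 rose by 1.99. The glycerol kinase gene GK was at -0.39 for CoCl2 and 0.058 for OD on the log2 scale. With OD 3 genes of the list rose, PNPLA2 at 1.38, MGLL at 1.32 and AGPAT2 at 1.06, and no other was called, where 9.09% of all tested genes were called higher and 4.16% lower. MGLL, the lipase that frees glycerol from monoglycerides, moved in opposite directions, with -1.16 for CoCl2 and 1.32 for OD, and its log2 difference between CoCl2 and OD was -2.49.

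Of 19 genes of intestinal ion and fluid transport, whose salt movements draw water across the epithelium, 18 were tested and KCNQ1 was below the filter. With CoCl2 6 fell and 2 rose, against 23.4% and 19.9% of all tested genes, with a median log2 fold change of -0.27. With libraries scaled by size alone 8 fell, 2 rose and the median was -0.77, where the median of all genes was -0.55. The largest falls were those of CFTR, the apical chloride channel, from 171 ± 6.55 to 23.7 ± 1.65 CPM (SD, n = 3, log2 fold change -2.85, edgeR adjusted p = 6.78e-49), of KCNE3, a potassium channel subunit, at -2.10 and of SCNN1A, a subunit of the epithelial sodium channel, at -1.63. SLC9A3, SLC9A2 and CLCN2 were the other called falls, at -1.56, -1.08 and -1.08. The 2 called rises, SLC4A4 at 2.07 and SLC26A3 at 1.61, had at most 24 counts in any CoCl2 or control library. For SLC26A3 the CoCl2 and control libraries overlapped. With OD 5 of the 18 rose (4 by DESeq2) and no other was called, against 9.09% of all tested genes called higher and 4.16% lower. The median was 0.51 against -0.010 over all tested genes. The rises were GUCA2A at 2.15, GUCA2B at 1.87, SLC26A3 at 1.58, SLC5A1 at 1.28 and SLC4A4 at 1.15. All of these but GUCA2A had at most 21 counts in any OD or control library. GUCA2A and GUCA2B encode guanylin and uroguanylin, the peptides that drive intestinal fluid secretion, and GUCA2A stood at 5.35 CPM in control, 4.59 with CoCl2 and 23.7 with OD.

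**Figure D5:**
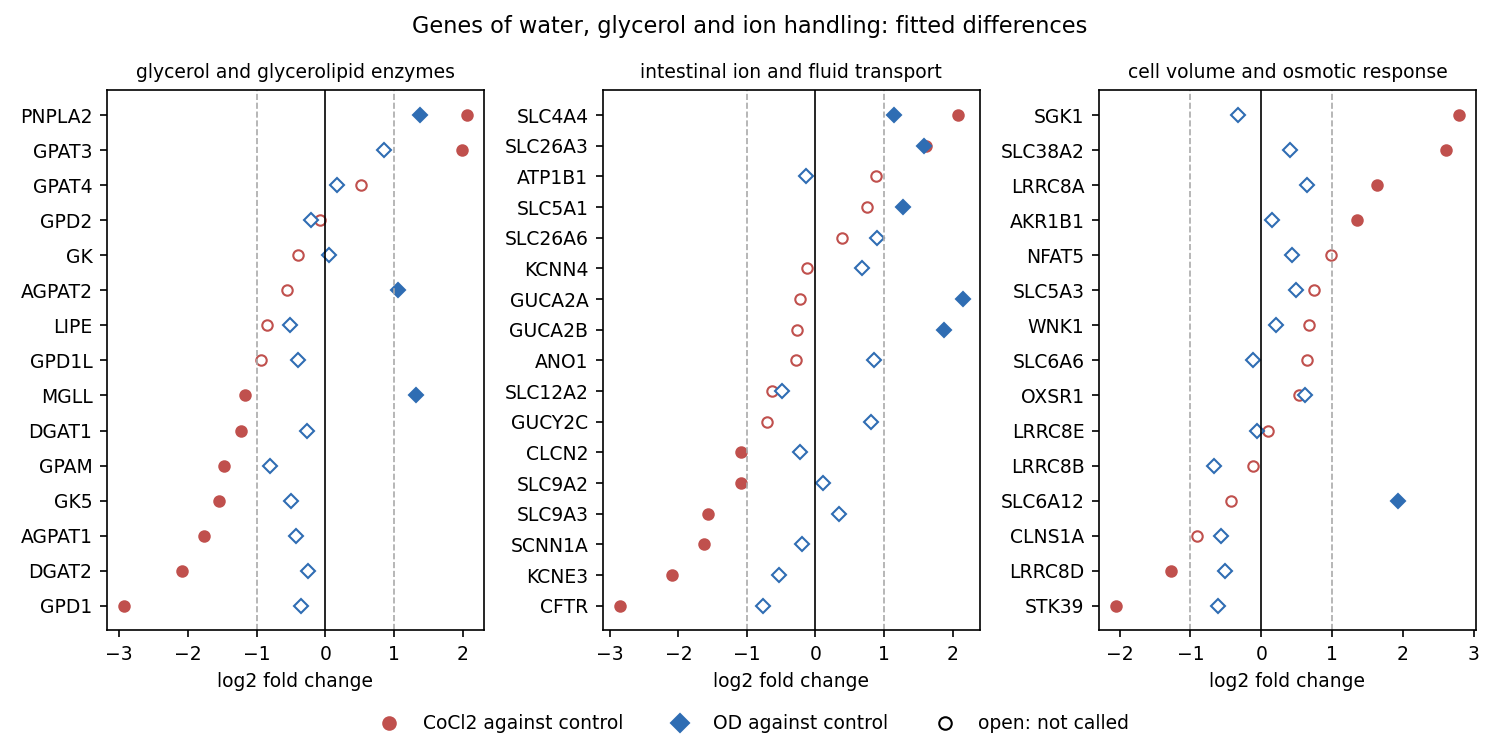
Log2 fold changes (x axis) against control of the tested genes, except 1 that is not reported here, of 3 lists, glycerol and glycerolipid enzymes, intestinal ion and fluid transport, and cell volume and osmotic response, sorted by the CoCl2 value. Red circles are CoCl2 and blue diamonds OD, filled where the gene was called, with CFTR at -2.85 and SGK1 at 2.79 among the CoCl2 values and GUCA2A at 2.15 among those of OD.

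Cell volume and osmotic response genes gave 4 rises and 2 falls with CoCl2 among 15 tested of 16, against 19.9% and 23.4% of all tested genes, with a median log2 fold change of 0.65, and 3 of each with libraries scaled by size alone. SGK1, a kinase that acts on ion channels, rose from 43.2 ± 2.68 to 299 ± 20.4 CPM (SD, n = 3, log2 fold change 2.79, edgeR adjusted p = 5.06e-51). SLC38A2, an amino acid transporter induced by hypertonic medium, rose by 2.61, LRRC8A, the obligate subunit of the volume-regulated anion channel, by 1.63 and AKR1B1, which makes sorbitol, by 1.36. STK39, a kinase of cation-chloride cotransporters, and LRRC8D, another channel subunit, fell with log2 fold changes of -2.05 and -1.27. NFAT5, the factor of the hypertonic response, was at 0.98 for CoCl2 on the log2 scale, just inside the threshold, and 0.43 with OD. With OD only SLC6A12, a betaine transporter, was called among these genes, at 1.94, where 13.3% of all tested genes were called. Of 4 urea and ammonia channels, RHBG alone was tested, and it fell from 2.46 ± 0.361 to 0.222 ± 0.0585 CPM with CoCl2 (SD, n = 3) and was at 1.04 ± 0.441 with OD.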

How the data were processed

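Messenger RNA of uCaco-2 cells was measured by stranded poly(A) RNA sequencing in 3 conditions with 3 replicates each. FastQC 0.11.9, cutadapt 2.10 and STAR 2.7.5b were used by the authors for quality control, trimming and alignment to GRCh38 with GENCODE release 34. They deposited raw, not normalized, read counts for each gene symbol. The counting tool, its strand setting and its treatment of reads that fit several genes are not given in the sources used here.

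TMM factors were computed with edgeR 4.0.16 (R 4.3.3), which also applied its expression filter (15944 of 60591 symbols kept) and fitted a robust quasi-likelihood model over all 9 libraries with 1 mean per condition, with Benjamini-Hochberg adjustment. Standard errors are the size of the log2 fold change divided by the root of its F value. All 9 columns belong to mapped samples, and 0 columns were left unused. Replicate pairs differed beyond sampling noise (chi-square per degree of freedom 1.82 to 3.32), so each library counted as 1 replicate. Loci and exon lengths came from GENCODE release 44, matched by symbol, and promoter windows from RefSeq.

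The members and lists were chosen with earlier results of these data known. Named are all aquaporin symbols, the nearest protein-coding genes, the 5 most correlated genes of each tested member and, of each list, at most 3 called rises and 3 called falls with CoCl2, whose mean reached 1 CPM and whose libraries did not overlap. GK, MGLL, AGPAT2, NFAT5, AKR1B1, SLC6A12, GUCA2A, GUCA2B, SLC5A1, SLC9A3, SLC9A2, CLCN2, SLC4A4, SLC26A3 and KCNQ1 were singled out after their values were seen. Alternatives were DESeq2 1.42.0, fits on 6 libraries, other scalings and filters, the adjusted p alone, the replicate number as a block and each library left out. The steps were tested on simulated data. Some list genes are not reported here by name.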

Additional observations from a re-analysis of the deposited data

How the results depend on the processing

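Member fold changes kept their sign in all alternatives tried except in 2 fits. AQP3 with CoCl2 against control was -0.011 when libraries were scaled by size alone, where the median of all genes was -0.55. Which scaling is right for these libraries was not tested. AQP7 with OD against control ranged from -0.32 to 0.014 over the fits without a library, the latter without control replicate 1. Calling by the adjusted p alone gave 13260 genes with CoCl2, 10466 with OD and 13311 between them in place of 6891, 2113 and 6580. With CoCl2, 3 members passed it in place of 1, where 83.2% of all tested genes passed. Between the treatments the count was 4 in place of 2, where 83.5% of all tested genes passed. Both of the latter counts include AQP10, which has no test there. Counts of members between the treatments and with OD are descriptive, since AQP10, or the contrast itself, chose the family. With scaling by size alone, 2 members, AQP7 and AQP11, were called with CoCl2, where 7672 genes were called. Between the treatments 4 members were past both thresholds, with AQP10 among them without a test, where 7377 genes were called. With at least 10 counts in every library, AQP7 and AQP10 were not tested. By edgeR 4717 genes were called there with CoCl2, 1134 with OD and 4394 between the treatments. The number of genes tested under this filter is not given here. Of the members, 0 were called with CoCl2, where AQP7 was no longer tested. By description 1 lay past both thresholds with OD and 1 between the treatments. AQP3 and AQP11 kept an adjusted p under 0.05 with CoCl2. Over the fits without a library, 1 to 2 members were past both thresholds with CoCl2 and 2 to 3 between the treatments. AQP10, which has no test, makes the count 2 with CoCl2 and is among those between the treatments. The genes called in these fits were 6908 to 7207 with CoCl2 and 6572 to 6917 between the treatments. AQP3 between the treatments lay near the fold threshold, from -1.52 to -0.93 over the alternatives. Correlations of same-numbered deviations were -0.0049 to 0.038, and those of differently numbered ones -0.047 to 0.025. The labels do not say whether replicate numbers pair the libraries, and values this small cannot decide it. With the replicate number as a block 6901, 2115 and 6568 genes were called. With the canonical transcript length, chosen after seeing the data, the CPM per kb in control, CoCl2 and OD was 12.3, 17.3 and 34.1 for AQP3 and 0.620, 0.186 and 0.545 for AQP7, each well above the value with the union of exons, and that of AQP10 with OD was 5.07. Counts under 10 limit AQP1, AQP4 and AQP5. Low counts also limit AQP10 outside OD, with at most 14, and AQP7 with CoCl2, with 8 to 10.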
